A study of Mus musculus with 6 samples.

Results

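The cells described here are 76 mouse bone marrow cells sorted as CD201-CD48- HSC1 and CD201-CD48- HPC1, out of 497 single cells in 6 libraries. They were taken as all cells of 1 sequencing library, by the library's name in the deposited tables, with no use of expression. The mice were C57BL/6, with no genetic change or treatment given in the labels. The other 5 libraries serve as comparisons. The HSC1 library (84 cells) was sorted for HSC1 cells that were CD201+CD48- or CD48+. The HPC1 library (82 cells) was sorted for HPC1 cells of the same gates, and the labels give spleen as the tissue of both. The MPP2-containing library (80 cells, bone marrow) holds MPP2, CD48+ HSC1 and CD48+ HPC1 cells and also CD201-CD48- HPC1 cells, the gate it shares with the double-negative library. These 4 libraries came from mice of 8 to 10 weeks and are labelled as polyA RNA. The HSC2/MPP4 library (89 cells: CD48+ HSC2, MPP4) and the CD48-negative HSC2 library (86 cells: CD48-CD201+ HSC2, CD48-CD201- HSC2) came from bone marrow of 8-week-old mice, are labelled as total RNA and were deposited as separate tables.

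The labels do not tie single cells to gates, so HSC1 and HPC1 cells of the double-negative library were described together and the cells of the shared HPC1 gate could not be set apart. Each group was 1 library, so no p-value was computed, and the labels do not say how many animals a library pools. Gate and tissue cannot be told apart in the comparisons with the HSC1 and HPC1 libraries, and gate, RNA type and deposit cannot be told apart in the comparisons with both HSC2 libraries. All 5 comparisons use the same 76 cells, so a gene that stands out in them can recur in each comparison without being separate evidence.

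Haematopoietic stem cells sit at the top of blood formation and can rebuild the whole system after transplantation, whereas progenitors next to them carry shorter-lived and more restricted output. CD201, the endothelial protein C receptor encoded by Procr, marks cells with long-term repopulating activity. CD48, a SLAM-family surface protein, is absent from most long-term stem cells and appears on multipotent progenitors. CD41, encoded by Itga2b, is an integrin chain shared by platelets, megakaryocytes and a part of the stem cell pool, and MPP2 and MPP4 are names for multipotent progenitors with megakaryocytic-erythroid and lymphoid leanings.

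The 76 cells had a median of 105225 counts (lowest 3977, highest 566540) and a median of 4761 genes. Median counts in the other libraries were 63092 for HSC1, 112832 for HPC1, 145496 for MPP2-containing, 35977 for HSC2/MPP4 and 23540.0 for CD48-negative HSC2. Each level below pools the counts of a library's cells and scales them to 1000000 counts (CPM), with exact 95% Poisson intervals that cover counting error only, since the labels do not say whether molecules were tagged. Ratios are log2 after adding 10 CPM to each level, so differences between low levels come out too small; a gene was called when the ratio reached 2-fold. Shares of cells come from cells thinned to 10000 counts, which kept 75 of the 76 double-negative cells and between 66 and 81 cells of the other libraries. In the double-negative library 2 cells stood apart by mitochondrial share (7.17% and 4.63%, against 2.02% in the next cell) and 1 cell by mature neutrophil transcripts (11.8% of its counts, against 0.359% in the next). No cell had counts identical to those of another: the number of such cells was 0.

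The sorting phenotype was visible in the RNA. Cd48 had 16 counts in 12 of the 76 cells, 1.62 CPM (0.925 to 2.63), and 1.3% of thinned cells held a count (exact binomial interval 0.0% to 7.2%). The other libraries stood at 9.36 CPM (CD48-negative HSC2), 33.9 (HPC1), 81.4 (HSC1), 122 (MPP2-containing) and 173 (HSC2/MPP4), so the double-negative cells were lowest, and only the other library sorted as CD48- came near. Procr was at 23.9 CPM (20.9 to 27.1) with counts in 33 cells and in 17.3% of thinned cells. It was higher in the libraries that include a CD201+ gate, at 133 CPM in HSC1, 115 in CD48-negative HSC2 and 71.6 in HPC1, and at 16.4 and 17.8 CPM in the MPP2-containing and HSC2/MPP4 libraries. Cd48 and Procr follow the gates and are a check of the labels, not a finding. Procr RNA was low in the double-negative cells but not absent.

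**Figure D1:**
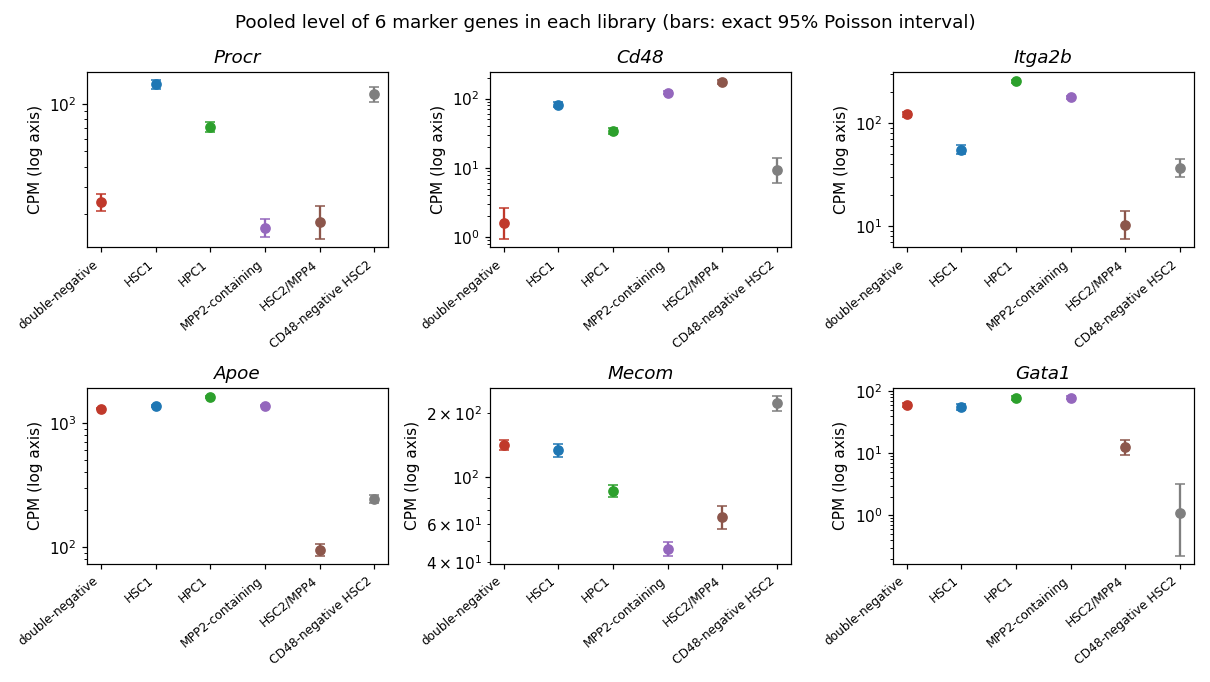
Pooled level of Procr, Cd48, Itga2b, Apoe, Mecom and Gata1 in the 6 libraries, in CPM on log axes; points are summed counts and bars are exact 95% Poisson intervals. In the double-negative library Cd48 sits at 1.62 CPM, the lowest of the 6, while Mecom at 142 CPM lies between the HSC1 and CD48-negative HSC2 libraries.

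The 4 other marker genes were not part of the CD201 and CD48 gates. Whether CD41, encoded by Itga2b, was used to sort HSC1, HPC1 and HSC2 cells was not checked. The order of Itga2b over the libraries may therefore be a check of the labels too. Mecom, a transcription factor needed to maintain stem cells, was at 142 CPM (134 to 149) with counts in 67 of 76 cells; the CD48-negative HSC2 library was higher at 223 CPM, HSC1 lay next to it at 134, and HPC1 (86.2), HSC2/MPP4 (64.7) and MPP2-containing (46.1) were lower. The intervals of the double-negative and HSC1 libraries met, so these neighbours in the order were not apart beyond counting error. Itga2b was at 122 CPM (115 to 129), between HSC1 (55.5) and the MPP2-containing (179) and HPC1 (255) libraries, and far above HSC2/MPP4 (10.4) and CD48-negative HSC2 (37.1). Apoe, a lipid transport protein, was at 1303 CPM with counts in 75 of 76 cells. It was of like level in HSC1 (1364), MPP2-containing (1377) and HPC1 (1619), but only 243 CPM in CD48-negative HSC2 and 94.8 in HSC2/MPP4. Gata1, the erythroid and megakaryocytic transcription factor, was at 60.5 CPM (55.7 to 65.5) in 39 of 76 cells, beside 55.3 in HSC1, 78.4 in HPC1, 78.6 in MPP2-containing and 12.5 in HSC2/MPP4. In the CD48-negative HSC2 library Gata1 had 3 counts in 1 cell, so the double-negative level was higher by a ratio of 56 (interval 19.1 to 272).

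**Figure D2:**
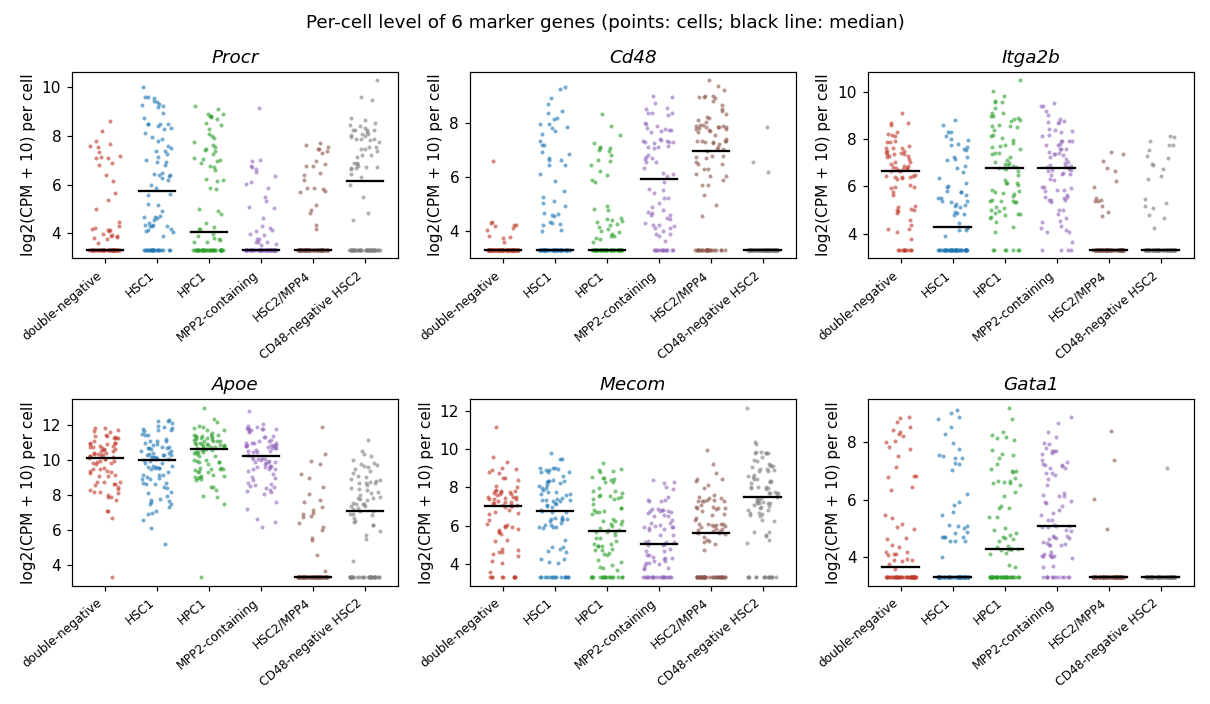
The same 6 genes per cell, as log2(CPM + 10); points are cells and the black line is the median of each library. In the double-negative library Apoe is spread around a median of 1089 CPM, whereas Cd48 and Procr have a median of 0, with counts in 12 and 33 of the 76 cells.

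The double-negative library held few transcripts of mature T, NK and B cells, and more of macrophage-monocyte and neutrophil genes. Of the T and NK cell genes, Cd8a and Cd4 had 0 counts, which allows at most 0.303 CPM each. Il7r, the lymphoid interleukin 7 receptor, also had 0 counts, and the B cell factor Ebf1 had 1 count. The T and NK cell list summed to 114 CPM, of which Nkg7 made 91.3 CPM and Lck 22.5, and 4 of its 8 recovered members had no count. The mature B cell list summed to 72.2 CPM with Cd79b at 61.1; in the other 5 libraries its sum ran from 128 to 247 CPM. The endothelial and stromal list summed to 474 CPM, almost all in Eng, Egfl7, Esam, Emcn, Pecam1 and Tie1, which stem cells also carry, while Kitl had 0 counts and Col1a1 0.202 CPM. The macrophage-monocyte list summed to 857 CPM, with 805 CPM in the median cell and 5.6% of its counts in the top cell. Lyz2, the lysozyme of myeloid cells, made 773 CPM of the sum, while Adgre1, a macrophage gene, had 8 counts in 1 cell. The list's sum in the other libraries ran from 707 to 1617 CPM. Mature neutrophil transcripts summed to 798 CPM, and 1 cell held 62.0% of their counts.

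Against the HSC1 library, 181 of 13212 genes were at least 2-fold higher in the double-negative library (1.37%) and 277 at least 2-fold lower (2.10%), around a median ratio of 0.00 over all genes. The higher genes included platelet and mature neutrophil genes, and the lower ones MHC class II and other leukocyte genes. Of 12 mature neutrophil genes 5 were past 2-fold higher and 0 lower, with a median of 0.70; the median was 0.03 without the cells that stood apart, among them the 1 double-negative cell with 62.0% of these counts. Of 29 recovered megakaryocyte-platelet genes 7 were past 2-fold higher and 0 lower, with a median of 0.53. Cavin2, a coat protein of membrane caveolae found in platelets, was at 95.9 CPM (89.9 to 102) against 12.9, a log2 ratio of 2.21. The platelet receptor subunits Gp1bb (45.5 against 5.55 CPM, 1.84), Gp5 (58 against 20.6, 1.15) and Gp9 (175 against 78.9, 1.06) and the integrin chains Itgb3 (1.06) and Itga2b (1.01) went the same way, as did the platelet chemokine Pf4 (332 against 103 CPM, 1.60). The group was not uniform, since Vwf, the platelet adhesion factor often used to mark megakaryocyte-biased stem cells, was at 11.1 CPM against 21.6 (-0.58) and Gata1 had a ratio of 0.11.

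The promoter of Gp5 is shown because it was the 1 member of the megakaryocyte-platelet list whose 250 bases before the start held the GATA motif AGATAA (searched on both strands, with no overlap with the Y-box motif searched for MHC class II genes below). The sequence is RefSeq's, build GRCm38.p6, chr16:30310782-30311031, minus strand, written 5′ to 3′ toward the start, with the motif's reverse complement TTATCT in capitals. Of 32851 promoters of this length 9.99% held the motif, and 21 of the 29 genes had a promoter entry, so the list's 1 match stood at no higher rate. The match is a description of letters and not a site.

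Gp5: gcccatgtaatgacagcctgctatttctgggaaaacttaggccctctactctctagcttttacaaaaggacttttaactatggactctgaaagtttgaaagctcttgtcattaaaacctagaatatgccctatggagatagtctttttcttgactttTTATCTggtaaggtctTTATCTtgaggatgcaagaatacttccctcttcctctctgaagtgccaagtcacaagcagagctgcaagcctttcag

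The stem cell list divided in the comparison with HSC1. Its median was -0.20 over 30 genes, with 2 past 2-fold higher and 3 past 2-fold lower. The 2 were Nupr1, a stress-response regulator (1.37), and Ctnnal1, alpha-catulin (1.04), with 39.1% of the double-negative Ctnnal1 counts in 1 cell. The 3 lower ones were Procr itself, Sult1a1, a sulphotransferase of stem cell signatures (35.2 against 142 CPM, -1.75), and Ly6a, which encodes Sca-1 (204 against 449.9 CPM, -1.10). Hlf (170.4 against 269 CPM, -0.63) and Mllt3 (168 against 281 CPM, -0.71), regulators of stem cell self-renewal, were lower by less than 2-fold. Mecom, Meis1 (-0.01), Gata2 (-0.08) and Pdzk1ip1 (0.10) had ratios close to 0. Mecom, Meis1, Gata2, Hlf and Mllt3 thus had ratios from close to 0 down to -0.71, while Eya1 was at 0.65. In the whole list 11 genes had ratios above 0 and 19 below, and its largest gap outside the gate genes was at Sult1a1.

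Other genes past 2-fold against HSC1 included Aldh1a1, a retinaldehyde dehydrogenase (83.2 against 15.3 CPM, 1.88), Sox6, an SRY-box factor known in erythroid cells (82.8 against 20.3, 1.61), and Arl5c (1.80), Ydjc (1.75) and Gtf3c1 (1.60). On the lower side were Cd74, the invariant chain (-2.38), Tinagl1, an extracellular matrix protein (5.06 against 59 CPM, -2.20), and Btg2, an antiproliferative immediate early gene (23.5 against 129.7 CPM, -2.06). Tespa1, a gene of lymphocyte signalling, had 6 counts in 5 double-negative cells (0.607 CPM) and 92.5 CPM in HSC1 (-3.27). The leukocyte tetraspanin Cd53 was at 4.75 CPM against 38.7 (-1.72) and the granule gene Nkg7 at 91.3 against 270.4 (-1.47). In the granulocyte-monocyte progenitor list 4 of 20 were past 2-fold lower and 0 higher, with a median of -0.32, and in the erythroid list 5 of 23 were lower and 0 higher (-0.38). The erythroid sum was not lower, at 3013 CPM against 2816 pooled and 2784 against 2326 in the median cell. Over the processing settings compared below, the erythroid median came as near to 0 as -0.01. Klf1, the erythroid master factor, was at 24.6 CPM against 66.7 (-1.15), and Car1 at 29.6 against 146 (-1.98), with 62.8% of the double-negative counts of Car1 in 1 cell.

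Against the HPC1 library, 165 genes were at least 2-fold higher (1.25%) and 249 at least 2-fold lower (1.88%), and here the platelet genes lay on the other side. Of the 29 megakaryocyte-platelet genes 0 were past 2-fold higher and 8 lower, with a median of -0.60. Pf4 stood at 332 CPM against 2709 (-2.99), Plek, a platelet kinase substrate, at 20.8 against 101 (-1.85), Vwf at 11.1 against 64.3 (-1.81) and Gp1bb at 45.5 against 175 (-1.73). Rab27b, of granule release, was at 33.9 against 93.7 (-1.24), whereas Gp5, Gp9 and Cavin2 were each at -0.63. The pooled double-negative levels therefore lay between those of HSC1 and HPC1 for Pf4, Gp1bb, Gp5, Gp9, Itga2b, Itgb3 and Cavin2. This order did not hold for the whole list, since 6 of its 29 genes were lower than in HSC1 and 6 higher than in HPC1. Vwf, at 11.1 CPM, was below both libraries. The double-negative library is itself a mixture of HSC1 and HPC1 cells, and the part of that mixture in this order was not tested.

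Pf4 was present throughout the HPC1 library. It had counts in all 82 HPC1 cells, of which the lowest was at 182 CPM, and S100a8 and Hbb-bs, genes of neutrophils and red cells, also had counts in all 82. In the double-negative library they were found in 70, 68 and 66 of the 76 cells, with a lowest cell of 0 for each. The 6 lowest genes in the comparison included the haemoglobin genes Hba-a2 (-3.89), Hba-a1 (-3.77), Hbb-bs (-3.41) and Hbb-bt (-3.19), which are near-identical copies whose split is uncertain, and the neutrophil genes Chil3 (-3.55) and Lcn2 (-3.31). In HPC1, 1 cell held 56.9% of the Hbb-bs counts and 1 cell 55.6% of the S100a8 counts. The mature neutrophil list had a median of -2.18 with 8 of 12 genes past 2-fold lower, and 3 HPC1 cells carried over 1% of neutrophil transcripts. Without the deepest 10% of cells the median was -0.04, and Chil3 and Lcn2 were each at -0.15. The part of these transcripts in the platelet gap was not tested.

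Stem cell genes differed little from HPC1: the list had a median of 0.14, with Ctnnal1 (1.11) past 2-fold higher and Sult1a1 (35.2 against 168 CPM, -1.98) and Procr (-1.27) past 2-fold lower. For Ctnnal1, 39.1% of the double-negative counts lay in 1 cell. Mecom was at 0.66, Hlf at 0.35, Mllt3 at 0.19, Ly6a at 0.10 and Pdzk1ip1 at 0.01. Phlda2, an imprinted growth regulator (93.6 against 26.9 CPM, 1.49), Sox6 (82.8 against 26.9, 1.33), Insr, the insulin receptor (52.1 against 17.3, 1.18), and the transcription factors Sox4 (66.7 against 23.8, 1.18) and Ikzf2 (65.8 against 24.5, 1.14) were higher. Zfp950 (1.57), Arhgap15 (150 against 45.9 CPM, 1.52), Atg12, of autophagosome formation (69.5 against 19.3 CPM, 1.44), and Mtmr14 (1.35) completed the highest genes found in at least 25% of the cells of either library. The granulocyte-monocyte list had 6 of 20 past 2-fold lower and 0 higher (median -0.52), including Mpo (14.8 against 48.2 CPM, -1.23) and Elane (10.4 against 47.1, -1.48), the granule enzymes myeloperoxidase and neutrophil elastase.

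The MPP2-containing library shares 1 gate with the double-negative library. Here 249 genes were at least 2-fold higher (1.88%) and 250 at least 2-fold lower (1.89%), with stem cell genes on the higher side. Of 30 stem cell genes 12 were past 2-fold higher and 0 lower, with a median of 0.80. They included Nupr1 (67.4 against 13.1 CPM, 1.74), Mecom (142 against 46.1, 1.43), Mllt3 (168 against 56.4, 1.42), Txnip, a redox regulator (402 against 162, 1.26), Pdzk1ip1 (474 against 207, 1.16), Ly6a (1.09) and Hlf (170.4 against 79.9, just at the threshold). In single cells Mecom was found in 58.7% of thinned double-negative cells and 25% of MPP2-containing cells. Imprinted Grb10, an adaptor that restrains insulin-type signalling (78.1 against 23.2 CPM, 1.41), Phlda2 (1.48), Ndn (1.27) and Insr (1.64) were also higher.

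Proliferation and myeloid genes lay on the lower side of that comparison. All 25 G2/M genes had ratios below 0, 12 of them past 2-fold, with a median of -0.98, and 6 of 25 S phase genes were past 2-fold lower with 0 higher (-0.62). Mki67 was at 135 CPM against 300.4 (-1.10) and the mitotic cyclin Ccnb2 at 186 against 421 (-1.14), while Ube2c, of the anaphase-promoting machinery, was at 372 against 466 with 55.3% of the double-negative counts in 1 cell. Ctsg, cathepsin G (6.27 against 376 CPM, -4.57), Elane (10.4 against 438, -4.45) and Mpo (14.8 against 515, -4.41) were the 3 lowest genes found in at least 25% of cells. In the MPP2-containing library 3 cells held 46.6% of the granulocyte-monocyte counts, the median cell stood at 2179.5 CPM against 1759.9 in the double-negative library, and with the mean of per-cell log2 values Ctsg was at -1.92, Elane at -1.97 and Mpo at -2.92. The next lowest genes were Cd48, Car1 (29.6 against 323, -3.07) and Tespa1 (0.607 against 78.8, -3.07). Of 20 granulocyte-monocyte genes 7 were past 2-fold lower and 1, Irf8, was higher (22.3 against 5.26 CPM, 1.08). The platelet list had a median of -0.02, with 2 genes past 2-fold on each side. The higher ones included the multimerin gene Mmrn1 (120.5 against 47.5 CPM, 1.18), and the lower ones were Pf4 (332 against 895, -1.40) and Plek (-1.67).

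The comparison with the HSC2/MPP4 library had the most genes apart, with 543 at least 2-fold higher (4.11%) and 464 at least 2-fold lower (3.51%). Platelet and stem cell genes were among the higher genes: 19 of 29 megakaryocyte-platelet genes were past 2-fold higher and 1, Plek, lower (median 1.49), and 14 of 30 stem cell genes were higher and 1, Ltb, lower (0.95). Pf4 (332 against 11.7 CPM, 3.98), Gp9 (175 against 3.31, 3.80), Apoe (1303 against 94.8, 3.65) and Pdzk1ip1 (474 against 36.4, 3.38) had among the highest ratios. Cavin2 and Aldh1a1 had no count in the HSC2/MPP4 library, which allows up to 0.765 CPM there. Against that limit of 3 counts they were at least 125-fold and 109-fold higher in the double-negative cells. Mllt3 (168 against 20.6 CPM, 2.54), Gata2 (227 against 31.3, 2.52) and Gfi1b, a repressor of blood cell fate genes (101 against 17.1, 2.04), were higher as well, and 10 of 30 blood transcription factors were past 2-fold higher with 3 lower.

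Myeloid, lymphoid and immediate early genes were among the lower genes. Of 20 granulocyte-monocyte genes 17 were past 2-fold lower and 0 higher (median -1.86): Mpo stood at 14.8 CPM against 3368 (-7.09), Elane at 10.4 against 2707 (-7.06) and Ctsg at 6.27 against 1041 (-6.01). These gaps rested largely on few cells, since 1 HSC2/MPP4 cell held 48.1% of the list's counts and 3 cells 78.7%, and the median cell stood at 2824 CPM against 1759.9. With the mean of per-cell log2 values Mpo was at -3.36, Elane at -1.14, Ctsg at -1.29 and the list's median at -0.38. Of 19 lymphoid genes 9 were lower and 0 higher (-0.82). Dntt, the terminal transferase of early lymphoid cells, had 3 counts in the double-negative library and 555 CPM in HSC2/MPP4, lower by a ratio of 1827 (624 to 8867), and Ighm had 1 count against 335 CPM. Flt3, a receptor used to define MPP4, was at 15 CPM against 286 (-3.57) and Cd34 at 151 against 587 (-1.89). Immediate early genes had 11 of 20 past 2-fold lower and 0 higher (-1.19).

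Against the CD48-negative HSC2 library, which shares the absence of CD48, 333 genes were at least 2-fold higher (2.52%) and 529 at least 2-fold lower (4.0%). Platelet genes were again higher, with 13 of 29 past 2-fold and 1, Thbs1, lower (median 0.67). Cavin2 was at 95.9 CPM against 2.88 (3.04), Pf4 at 332 against 69.5 (2.11), Gp9 at 175 against 44.3 (1.77), and Gp5 at 58 CPM against 3 counts, higher by a ratio of 53.7 (18.3 to 261). Apoe (1303 against 243, 2.37) and Aldh1a1 (83.2 against 10.4, 2.19) were higher, as was Hist1h4n (2.32). Slamf1, which encodes CD150, was at 26.6 CPM in the double-negative cells and had no count in CD48-negative HSC2 cells, so it was at least 24.6-fold higher. Whether CD150 was used to sort these cells was not checked, so the Slamf1 gap may only be a check of the labels.

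Stem cell genes were split in this comparison, with 6 of 30 past 2-fold higher, 4 lower and a median of 0.24. Nupr1, with no count in the CD48-negative HSC2 library, was at least 62.4-fold higher, and Pdzk1ip1 (1.14), Ctnnal1 (1.68) and Sult1a1 (1.07) were higher too. Again, 39.1% of the double-negative Ctnnal1 counts lay in 1 cell. Ltb, lymphotoxin beta (34.9 against 487 CPM, -3.47), Ly6a (204 against 672, -1.67), Hlf (170.4 against 399, -1.18) and Procr (-1.89) were lower. Of the immediate early genes 16 of 20 were past 2-fold lower and 0 higher, with a median of -1.42. Of the mature neutrophil genes 8 of 12 were past 2-fold lower, with a median of -2.72, and 1 CD48-negative HSC2 cell held 95.7% of their counts. Nr4a1, an orphan nuclear receptor induced by stimulation, was at 7.69 CPM against 394 (-4.51), Fos at 311 against 2212 (-2.79), Klf6 at 65.7 against 562 (-2.92), Zfp36 at 56.5 against 429 (-2.72) and Junb at 109.9 against 628 (-2.41). The chemokine Ccl3 (5.66 against 309, -4.35), Wfdc17 (7.89 against 219.5, -3.68) and Rgs1, a brake on G-protein signalling (174 against 1685, -3.21), were lower as well. The cytosolic stress and chaperone list, which can mark handling, also had its median below 0, at -0.31 here and -0.72 against HSC2/MPP4, and its part in the immediate early shift was not tested.

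**Figure D3:**
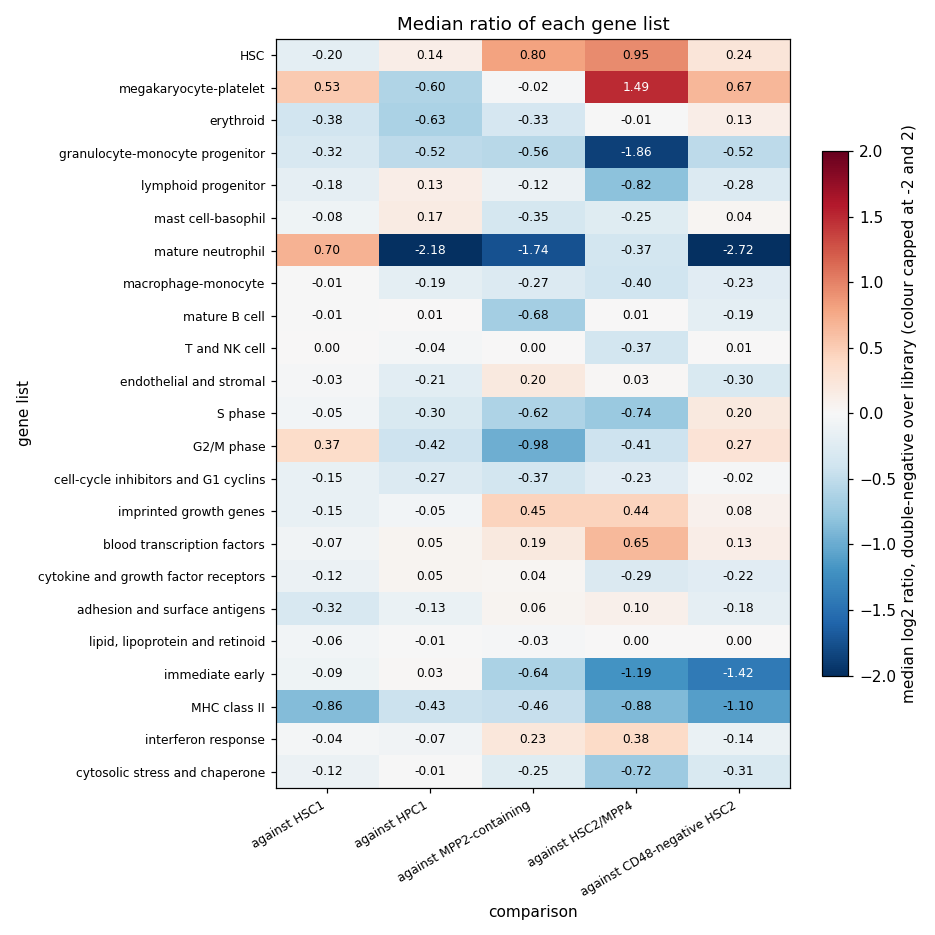
Median log2 ratio of 23 gene lists between the double-negative library and each of the other 5, with colour capped at -2 and 2. Megakaryocyte-platelet genes run from -0.60 against HPC1 to 1.49 against HSC2/MPP4, and MHC class II and granulocyte-monocyte genes are below 0 in all 5 columns.

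MHC class II genes, which present peptides to helper T cells, had medians below 0 in every comparison. The medians over 10 genes were -0.86 against HSC1, -0.43 against HPC1, -0.46 against MPP2-containing, -0.88 against HSC2/MPP4 and -1.10 against CD48-negative HSC2, with 5, 2, 3, 4 and 6 genes past 2-fold lower and 0 higher in each. Cd74 was at 7.99 CPM (6.33 to 9.96) in 21 of 76 cells, against 67.3 CPM or more in every other library, with ratios of -2.10 to -3.31. H2-Eb1 was at 13.2 CPM (11 to 15.6) against 45.3 to 93.2. Over the processing settings compared below, Cd74 came as near as -0.48 against MPP2-containing and -0.75 against HSC2/MPP4. Without the highest cell of each gene, neither Cd74 nor H2-Eb1 stayed 2-fold lower than in every other library. H2-Ab1 was at 40.8 CPM against 67.4 to 158, whereas H2-Aa, at 50.2 CPM, was level with the MPP2-containing library (49.3) and lower than the other 4 (81.6 to 159). The genes of peptide loading did not share this, since H2-DMa (256 CPM against 229.8 to 398) and H2-DMb1 (53.8 against 42.2 to 72) lay inside the range of the others. Ciita, the class II master regulator, was at 0.607 CPM, too low to compare.

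The promoters of H2-Eb1 and H2-Aa are shown because they carry the Y-box motif CTGATTGG of class II promoters within 250 bases before the start. The motif stood in 3 of the 7 list genes with a promoter entry and in 3.83% of 32851 promoters, both strands searched; with 7 genes this is a description. Sequences are RefSeq's, build GRCm38.p6, 5′ to 3′ toward the start, with the motif in capitals: H2-Eb1 at chr17:34305617-34305866, plus strand, and H2-Aa at chr17:34287824-34288073, minus strand. The motif began 62 and 51 bases before the start, so its position was similar in the gene whose level was lowest of the 6 libraries and in the gene whose level was not.

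H2-Eb1: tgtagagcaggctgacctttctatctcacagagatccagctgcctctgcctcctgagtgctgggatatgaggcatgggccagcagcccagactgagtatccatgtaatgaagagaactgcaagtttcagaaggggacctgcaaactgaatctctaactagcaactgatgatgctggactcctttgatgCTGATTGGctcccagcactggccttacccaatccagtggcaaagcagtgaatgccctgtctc

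H2-Aa: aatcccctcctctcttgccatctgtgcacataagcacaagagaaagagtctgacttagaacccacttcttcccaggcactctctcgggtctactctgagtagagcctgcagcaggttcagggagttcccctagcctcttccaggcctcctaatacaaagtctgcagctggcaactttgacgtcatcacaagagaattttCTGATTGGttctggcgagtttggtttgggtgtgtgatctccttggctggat

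Across all 5 comparisons at once, 11 genes were at least 2-fold higher in the double-negative library than in each other library (0.0833%) and 10 at least 2-fold lower (0.0757%). The higher genes were Tfcp2, Phlda2, Tecpr2, Adam5, Cryab, Trmt13, AW554918, Cramp1l, Ctnnal1, Sox6 and 4930558K02Rik. Without the highest cell of each gene 4 of the 11 remained: Phlda2, Trmt13, AW554918 and Sox6. The others rested more on 1 cell, which held 89.8% of the counts of 4930558K02Rik and 64.7% of those of Adam5. Sox6 was at 82.8 CPM (77.3 to 88.7) in 48 of 76 cells and 14.5 to 26.9 CPM elsewhere, with ratios of 1.33 to 1.92. It was found in 33.3% of thinned double-negative cells (22.9% to 45.2%) and in 4.9% to 17.3% of the others. Phlda2 was at 93.6 CPM (87.6 to 99.8) in 57 of 76 cells and 2.8 to 41 CPM elsewhere, with ratios of 1.02 to 3.02. Asns, asparagine synthetase (66.1 CPM against 10.8 to 30.9), Insr (52.1 against 9.99 to 33.5) and Eya1 (46.4 against 15.2 to 28) were also highest of the 6, with a smallest ratio of 0.89, 0.51 and 0.57. At any size of difference 2256 of the 13212 genes were highest in this library (17.1%) and 1697 lowest (12.8%).

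The 10 lower genes were Ccl4, Ccl9, Btg2, Rnf144a, Cd74, Psmd13, Ndc1, Tyrobp, H2-Eb1 and Rad54b. Without the highest cell of each gene 4 remained past 2-fold lower in all comparisons: Btg2, Rnf144a, Psmd13 and Rad54b. Tyrobp, a signalling adaptor of myeloid and NK cells, was at 22.1 CPM (19.2 to 25.2) against 63.1 to 323, and Btg2 at 23.5 CPM against 61.5 to 129.7. The chemokine Ccl9 had 8 counts in 6 cells (0.809 CPM) and stood at 12.1 to 173 CPM elsewhere, and Ccl4 was at 37.3 CPM against 89.8 to 602. Psmd13, a proteasome lid subunit, was at 29.8 CPM against 75.6 to 149.8 and was found in 20% of thinned cells, against 35.8% to 59.3%.

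**Figure D4:**
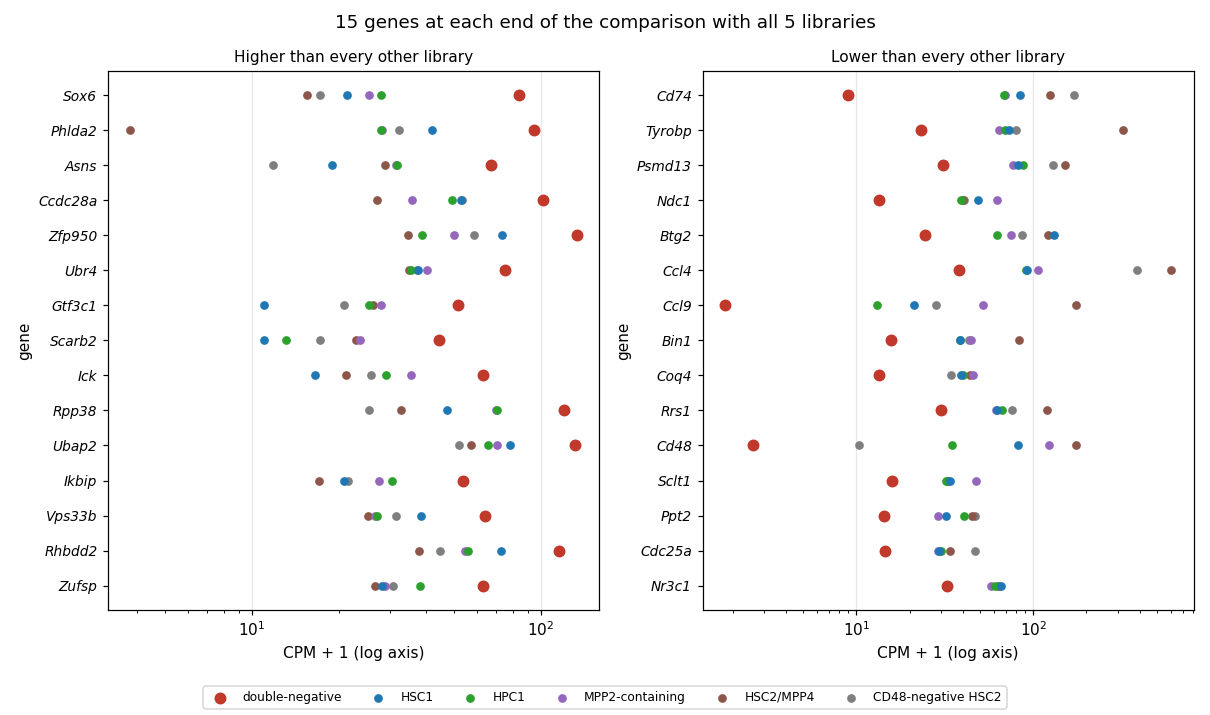
Levels of 15 genes higher and 15 genes lower in the double-negative library than in each of the other 5, as CPM + 1 on a log axis; large points are the double-negative library and small points the others. Sox6 and Phlda2 head the higher side at 82.8 and 93.6 CPM, and Cd74 the lower side at 7.99 CPM.

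Within the double-negative library the cells were far from uniform. The 15 genes with the largest variance over cells for their mean included the cell-cycle genes Ube2c, Ccnb2, Cenpa, Cks2 and Hmgb2, the histone genes Hist1h2bc and Hist1h2ae, and Pf4, S100a8, Lyz2, Hbb-bt and Fos. The spread of S100a8 came with the 1 neutrophil-rich cell, which held 51.7% of its counts. G2/M genes summed to 41.6 CPM in the lowest cell, 523 in the median and 20725 in the highest, and the top 3 cells held 64.3% of all their counts. At equal depth 10 of 75 cells had at least 20 of 10000 counts in G2/M genes, or 13.3% (6.6% to 23.2%). The share was 9.1% in CD48-negative HSC2, 15% in HSC1, 23.5% in HPC1, 32.1% in HSC2/MPP4 and 52.5% (41.0% to 63.8%) in MPP2-containing. At least 10 such counts were held by 14 of the 75 cells, or 18.7%, against 21.2% in CD48-negative HSC2, 32.5% in HSC1, 42.0% in HSC2/MPP4, 46.9% in HPC1 and 66.2% in MPP2-containing. The median cell had 5 such counts against 22 in the MPP2-containing library. The intervals cover the counting of cells within 1 library and do not compare gates.

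Platelet genes were spread differently. Pf4 was found in 70 of 76 cells, with a median of 97.1 CPM and a highest cell of 5843, and 1 cell held 19.6% of its counts. The whole megakaryocyte-platelet list summed to 345 CPM in the lowest cell, 1953 in the median and 9884 in the highest, with 10.1% of counts in the top cell, so it was present in every cell and highest in a few. Stem cell genes were more even, at 1553, 3556 and 8732 CPM.

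Gata1 was uneven over the cells, with a median of 2.9 CPM and a highest cell of 452. After thinning, 15 of 75 cells held a Gata1 count. Gp9 was found in 13 of these 15 cells (86.7%) and in 24 of the 60 others (40%), while Gp5 was found in 33.3% and 31.7%, Mecom in 40% and 63.3% and Hlf in 46.7% and 66.7%. Over the 76 cells Gp9 had the highest Spearman correlation with Gata1 (0.52) and Hlf the most negative (-0.40). Itga2b correlated most with Bcl2 (0.49), and Procr had its most negative correlation with Serpinb1a (-0.43). These are descriptions of sparse counts in cells of 1 library, which share its depth and may come from 2 gates, and each was picked for its size from many genes.

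**Figure D5:**
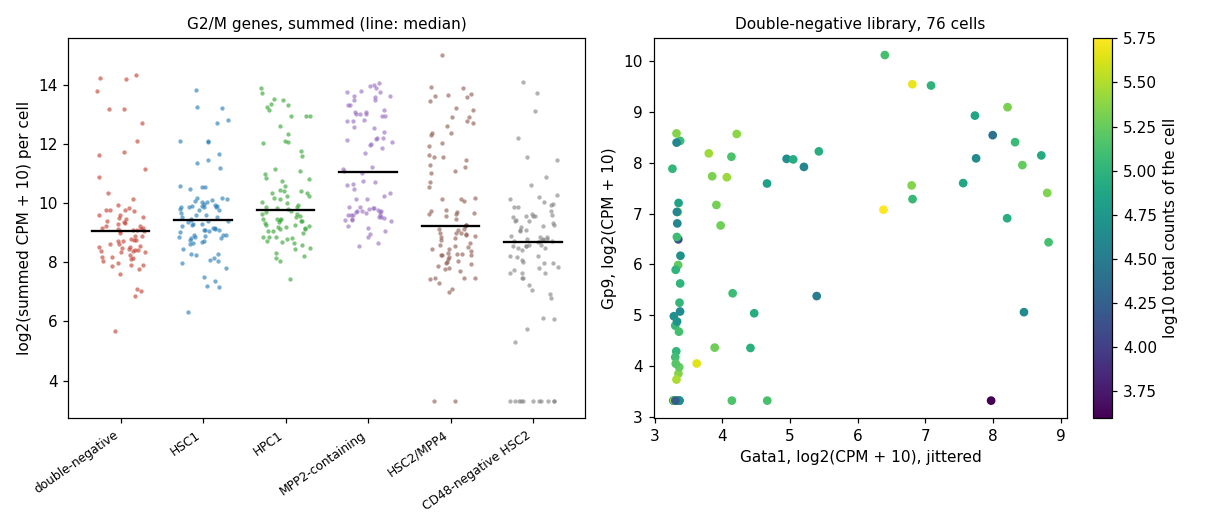
Left, the summed level of 25 G2/M genes in each cell, as log2(CPM + 10), with a line at the median of each library; right, Gp9 against Gata1 in the 76 double-negative cells on the same scale, coloured by log10 of the cell's total counts. A few double-negative cells reach the highest G2/M levels (20725 CPM), and Gp9 has counts both in cells with and in cells without Gata1.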

How the data were processed

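Single cells were sorted into lysis buffer and made into 3′-enriched cDNA by a modified Smart-seq2 protocol, per the labels' protocols. Reads were handled with TopHat and HTSeq on mm10, versions not given in the sources used here, per the submitters' processing notes. The deposited values are scores: the files show log-transformed counts per 10000 with 2 covariates regressed out, scaled to mean 0 and SD 1 over all 497 cells and capped at 10, as tested on the values. This scaling spans all 3 tables, which places the libraries on 1 scale and ties the rows of the 2 tables without gene names to the named table. Whole counts were recovered from these scores for 13212 of 13278 genes (whole within 0.05), and the other 66 were left out. The recovery was tested on simulated data.

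Counts were summed per library and compared without tests, since each group is 1 library. Cells were neither clustered nor filtered, and doublets were not called. Intervals are exact at 95%; a count of 0 allows 3 counts. The members, gene lists and markers were chosen with earlier results of these data known. Named genes were the 6 highest and 6 lowest per comparison among genes found in at least 25% of thinned cells of either library, the 20 at each end over all 5 comparisons, the 15 most variable within the library, the 5 highest and lowest correlations per marker, and list members; predicted, mitochondrial and ribosomal protein genes were left out. The genes 2-fold apart from all 5 libraries fall partly outside this rule and were named after their values were seen. Analyses used Python 3.11.15, numpy 2.4.6, scipy 1.17.1 and pandas 2.3.3. Alternatives varied the added CPM, the pooling of cells, depth and scaling.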

Additional observations from a re-analysis of the deposited data

How the results depend on the processing

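The main values pool all cells of a library and add 10 CPM; 171 values of named genes were past 2-fold. All 171 kept their direction in 9 of 10 settings, and with the mean of per-cell log2 values 170 did, where Ndc1 against CD48-negative HSC2 went to 0.03. Changing the added CPM cannot change the direction of a ratio, so those settings were no check of it. Adding 1 CPM in place of 10 can only widen a ratio, so its 171 values past 2-fold were fixed in advance. Past 2-fold there remained 171 with 1 CPM added, 69 with 50 CPM added, 117 with mean per-cell CPM, 87 with mean per-cell log2, 159 without the highest cell of each gene, 127 without the deepest 10% of cells, 125 thinned to 10000 counts and 166 with median-of-ratios scaling. Leaving out cells with over 4% mitochondrial or 1% neutrophil transcripts, chosen after seeing the data, kept 166. Counts of genes 2-fold higher and lower moved more, in the order HSC1, HPC1, MPP2-containing, HSC2/MPP4, CD48-negative HSC2. With 1 CPM added they were 1246 and 1505, 1202 and 1438, 1394 and 1357, 1888 and 1673, 1432 and 1944. With 50 CPM added they were 7 and 15, 2 and 28, 5 and 46, 74 and 94, 25 and 88. With mean per-cell log2 they were 35 and 13, 10 and 66, 9 higher (MPP2-containing), 283 and 183, 729 and 76. Among genes in at least 25% of cells they were 35 and 43 of 4179, 39 and 69 of 4234, 58 and 110 of 4519, 242 and 224 of 4518, 119 and 195 of 4240. Mean per-cell CPM gave 119 and 179 against HSC1 and 104 higher against HPC1. Without the highest cell 172 were lower than in HSC1, 101 higher than in HPC1 and 141 higher than in MPP2-containing. Without the deepest 10% of cells 277 were higher than in HSC1, and after thinning 250 were higher than in HPC1 and 378 lower than in MPP2-containing. The mature neutrophil median against CD48-negative HSC2 (-2.72) went to 0.08 with mean per-cell log2, 0.00 without the highest cell and 0.01 without the cells named above, which shows that it rests on few cells. That against HPC1 (-2.18) went to -0.04 without the deepest 10% of cells. Stem cell medians of -0.20 against HSC1 and 0.14 against HPC1 ranged to 0.01 and -0.10, so their direction was not held, and the granulocyte-monocyte medians against HSC1 (-0.32) and CD48-negative HSC2 (-0.52) each reached 0.02, while the medians for MHC class II genes kept their sign in every setting. The platelet medians did too, except that against MPP2-containing (-0.02). With counts of 0 to 2 raised to 3, no list median moved by more than 0.15. The cause of the other changes was not tested. No paired analysis was possible because each group is 1 library. Depth limits what can be called in CD48-negative HSC2 and HSC2/MPP4 cells, where 0 counts allow 1.08 and 0.765 CPM, against 0.303 in the double-negative library.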
